A study of Homo sapiens with 4 samples.

Results

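The genes described here are 41 autophagy and lysosome genes, chosen by name from the gene identifiers of the count table. They were chosen with earlier results of these data known. All 41 were found among the 56304 gene rows used, and all 41 were among the 15529 genes that passed the filter on low counts. They comprised 2 transcription factors of the TFEB family, 22 genes of autophagosome formation, 3 cargo receptors, 4 lysosomal membrane proteins and 10 proteins of the lysosomal lumen.

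Counts came from bulk RNAseq of MV3, a human melanoma cell line in common use, carrying H2B-GFP, a histone fused to green fluorescent protein that labels nuclei. Spheroids (50000 cells, 1 mm across) invaded a collagen I gel and were cut apart on day 2. A 1 mm biopsy punch removed the core and a 3 mm punch the surrounding gel with the invaded cells, the invasion zone, giving 2 libraries per zone. Both zones shared the cell line, the reporter, the matrix and the day, and differed in the part of the culture taken.

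Totals were 36363358 and 14983135 counts for the core and 37591782 and 11789243 for the invasion zone (replicates 1 and 2), so that replicate 2 was the shallower one in both zones and its low counts are the less precise. The defining markers fixed for melanoma were nearly silent: SOX10 and TYR were at 0 in every library, 4 of the 7 markers had fewer than 10 counts in every library, and the summed level was 3.18 to 3.77 normalized CPM (counts scaled to library size) in the core and 2.64 to 5.55 in the invasion zone. The melanocytic markers of the labelled line were thus at or close to 0 in both zones. Of the fibroblast markers, DCN and LUM were at 0 throughout, whereas PDGFRA gave a summed level of 58.2 to 95.2 in the core and 13.6 to 38.2 in the invasion zone. The endothelial sum, mostly PECAM1, was 7.63 to 18.3 in the core and 0.926 to 5.76 in the invasion zone, the leukocyte sum 1.19 to 1.59 and 0.337 to 0.4, and the epithelial sum 0.133 to 0.14 and 0.0842 to 0.213. The part of these markers in the results below was not tested. The methods name no cells other than MV3 in the spheroids, so these sums are given as levels of marker genes in that line, not as counts of other cell types. In bulk RNA, fewer cells in a given state and less RNA per cell cannot be told apart.

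Macroautophagy encloses cytoplasm in a double membrane, the autophagosome, which fuses with the lysosome, where acid hydrolases digest the cargo. A kinase complex around ULK1 starts the process, a lipid kinase complex marks the membrane, conjugation enzymes attach proteins of the ATG8 family to it, and cargo receptors bind both ATG8 proteins and the material to be degraded. TFEB and TFE3 are basic helix-loop-helix factors that activate many autophagy and lysosome genes through promoter elements built around the letters CACGTG, and their activity is controlled to a large extent by where the protein resides in the cell, which RNA counts do not measure.

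The promoter elements are shown first because the members include both these factors and genes known as their targets. Windows from 250 bases before to 50 bases after the transcription start (RefSeq, GRCh38.p14) were given for 36 of the 41 members, 45 windows in all. None was given for MAP1LC3A, LAMP2, CTSB, HEXA and PSAP, all lower in the invasion zone with the values given below. The letters CACGTG, searched on both strands (the motif is its own reverse complement), were in the windows of 7 members: ATG3, ATG14, LAMP1, CTSA, CTSD, GAA and MCOLN1. The longer form TCACGTGA, also its own reverse complement and containing the shorter one, was in the windows of 5 of these, ATG3, LAMP1, CTSA, GAA and MCOLN1. By window, the shorter form was in 15.6% of the members' windows, against 7.26% of all 35116 RefSeq windows and 9.28% of those of the genes tested. The longer form was in 11.1% of the members' windows, against 0.98% and 1.64%. By gene, the shorter form was in 19.4% of the members with a window, against 12.5% of the genes tested. The longer form was in 13.9%, against 2.23%. Since known targets of these factors are among the members by choice, these shares are a description and not a test. MCOLN1 and LAMP1, like GAA, had a further copy of the longer form, which is not printed for them. ATG3, CTSA and LAMP1 had further copies of the shorter form, also not printed. One site per gene is printed below, and for GAA the closer of its upstream pair as well. The longer form is in capitals, with 11 bases on each side.
GAA, chr17:80101493-80101522, + strand: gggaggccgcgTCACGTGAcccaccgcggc
GAA, chr17:80101538-80101567, + strand: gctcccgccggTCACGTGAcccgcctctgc
CTSA, chr20:45891298-45891327, + strand: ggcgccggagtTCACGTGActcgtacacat
LAMP1, chr13:113297199-113297228, + strand: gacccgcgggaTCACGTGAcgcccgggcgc
MCOLN1, chr19:7522571-7522600, + strand: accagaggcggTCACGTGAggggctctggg
ATG3, chr3:112561940-112561969, - strand: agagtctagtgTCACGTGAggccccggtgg

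The sites lay close to the annotated starts. In GAA, 69 and 24 bases separated the motif from the start, in MCOLN1 34 and 7, and in CTSA 18. In LAMP1 the distance was 21 bases for the printed site, and a further copy of the longer form spanned the start. In ATG3 the motif began 4 bases into the transcript. These are matches of letters, not evidence of binding. The 5 genes with the longer form did not move as a group: GAA and CTSA were lower in the invasion zone, LAMP1 and MCOLN1 had log2 fold changes of -0.13 and 0.07, and ATG3 was higher, with the values given below. ATG14 and CTSD, which had the shorter form alone, were both lower. Whether the motif goes with the direction of the difference was not tested, and members without a window could not be placed.

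The comparison asked how RNA of these genes differed between the invasion zone and the core punch. The paper cautions that the dissection was vertical, so that invading cells above and below the spheroid may have stayed in the core sample. As a group the members were lower in the invasion zone: 29 of the 41 had a negative log2 fold change (invasion over core) and 12 a positive one, with a median of -0.37, against -0.01 over all genes tested. The median was -0.35 within replicate 1 and -0.47 within replicate 2. By role, with no test between roles, the median was -0.74 over the 10 members of the lysosomal lumen and 0.13 over the 6 conjugation enzymes. Both invasion libraries lay below both core libraries for 23 members (56.1%, against 30.3% of all genes tested), and above them for 7 (17.1%, against 28.1%).

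By edgeR's quasi-likelihood test without a replicate term, with Benjamini-Hochberg adjustment over all genes tested, 0 members were higher and 0 lower at an adjusted p under 0.05, as was the case for all genes (0.0% in each direction). Members' adjusted p-values started at 0.112, and the smallest of any gene was 0.103. At an unadjusted p under 0.05, the same test counted 1 member higher (all genes: 12.3%) and 16 lower (all genes: 13.2%). DESeq2 without a replicate term called 0 members higher (all genes: 5.22%) and 12 lower (all genes: 5.64%), and limma voom called 0 in either direction. The methods describe a core and its corresponding invasion zone taken from a dissected spheroid, which was read as pairing the libraries of the same replicate number, although whether that number stands for a common spheroid or day is not stated.

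Once edgeR's test held the replicate as a block, 24 members were called lower (58.5%, against 20.1% of all genes tested) and 3 higher (7.32%, against 20.0%), while 14 were not called. The counts by role given below are small and were not tested against these shares. Below, rose and fell are used of these blocked calls, and each adjusted p is from this test (edgeR) unless stated, while log2 fold changes and their standard errors (SE) are of the test without the block, with n = 2 libraries per zone. The 24 that fell had log2 fold changes from -0.22 to -1.73, so that most were moderate. Both invasion libraries lay below both core libraries in 22 of them. This was counted among genes already called lower, and the matching share over all such genes was not computed. A minimum of 2-fold was also added to the blocked test, a setting chosen after the data were seen. Then 4 of the 41 members stayed lower, TFEB, WIPI1, GAA and NPC2 (all genes: 1147 of 15529, 7.39%). None stayed higher (all genes: 588 of 15529, 3.79%). These counts are too small to set the members apart from other genes. Nothing states that the libraries of a zone came from separate cultures. Without the block, p-values measure the zone difference against the spread between libraries of a zone. With the block, they measure it against how far that difference varies between the 2 replicates, which so few libraries estimate poorly. Either spread may be technical.

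**Figure D1:**
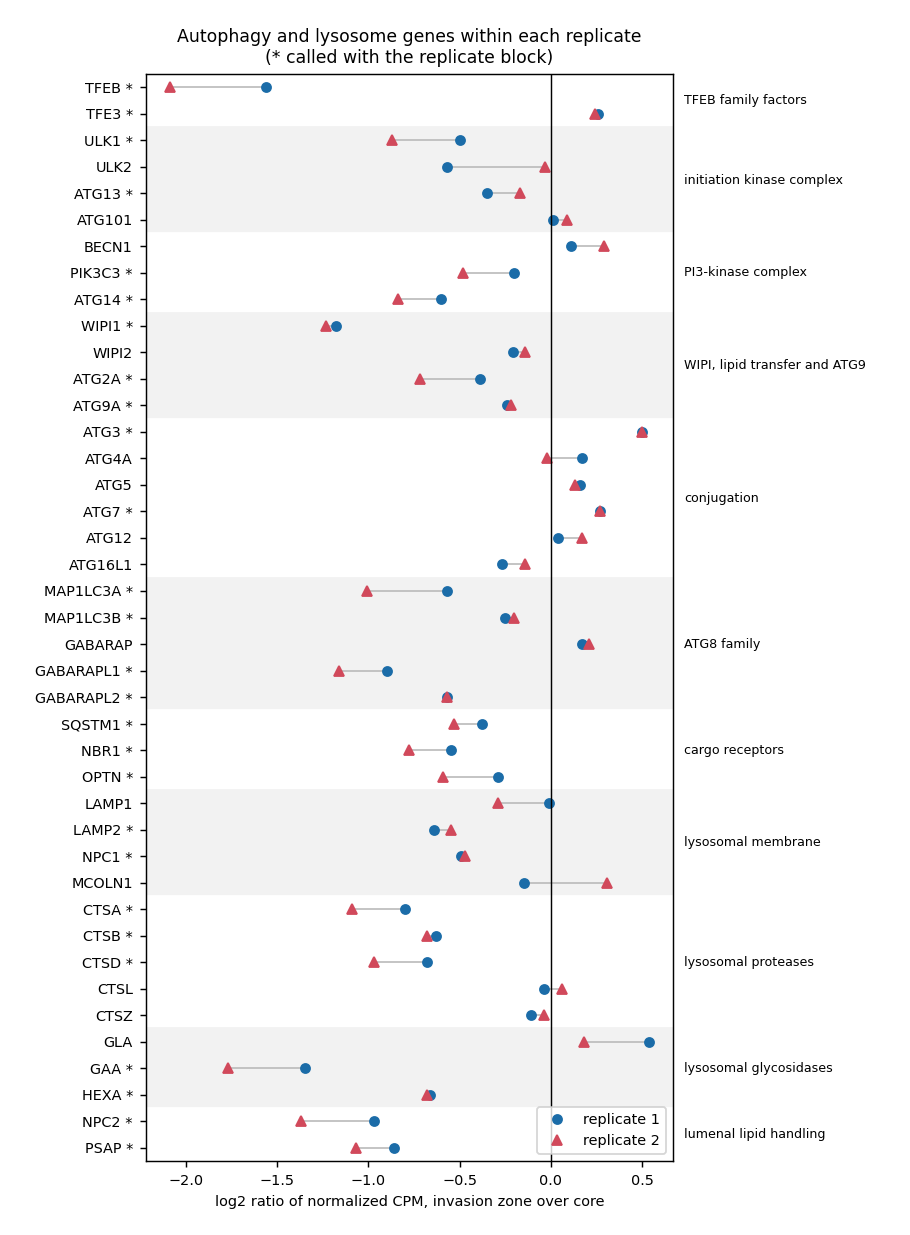
Difference of each of the 41 genes within each replicate, as the log2 ratio of normalized CPM of the invasion over the core library (circles, replicate 1; triangles, replicate 2), grouped by role; asterisks mark the genes called with the replicate block. In 38 of the 41 genes both replicates lie on the same side of 0, and most members of the lysosomal lumen lie to the left while the conjugation enzymes lie close to or right of 0.

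Both replicates had the same sign in 38 members (92.7%, against 79.5% of all genes tested), the exceptions being ATG4A, MCOLN1 and CTSL. Of the 24 that fell, 18 had the larger difference in replicate 2, the shallower one. The matching share over all genes called lower was not computed, so this may not be particular to the members.

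Of the TFEB family, TFEB fell and TFE3 rose. TFEB, a master regulator of lysosome formation (GRCh38, chr6:41683978-41736259, - strand, GENCODE), was at 22.1 and 19.0 normalized CPM in the core (replicates 1 and 2, here and below) and at 7.47 and 4.46 in the invasion zone. The invasion libraries lay well below the core libraries, with a fitted level 3.32-fold higher in the core and the largest log2 fold change of the 41 members (-1.73 ± 0.29, adjusted p = 0.000272). TFE3, its close relative with overlapping targets, was at 86.1 and 73.9 in the core and at 103 and 87.1 in the invasion zone. Its invasion libraries were only slightly above the core ones, with a log2 fold change of 0.25 ± 0.16 (adjusted p = 0.0417), and the call was lost under DESeq2 with the block (adjusted p = 0.148). With each library's trend with GC content and length removed, the blocked edgeR log2 fold change was 0.51 (adjusted p = 6.21e-05). Per kilobase of transcript, TFE3 was at 24.3 normalized CPM in the core and 28.9 in the invasion zone, and TFEB at 8.8 and 2.56, so that the transcript that rose was also the more abundant one of the pair.

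In the initiation complex, 2 of 4 members fell, 0 rose and the median log2 fold change was -0.32. ULK1, the kinase that starts autophagosome formation, was at 35.2 and 30.8 normalized CPM in the core and at 24.8 and 16.9 in the invasion zone, without overlap (log2 fold change -0.65 ± 0.23, adjusted p = 0.00507). ATG13, which links the kinase to its scaffold, was at 232 and 171 in the core and at 181 and 152 in the invasion zone. These ranges overlapped, and the log2 fold change was -0.27 ± 0.20 (adjusted p = 0.031). The second kinase, ULK2, and ATG101, which stabilizes ATG13, were not called, with log2 fold changes of -0.37 and 0.05. Removing each library's trend with GC content and length ended the blocked calls of ULK1 (adjusted p = 0.161) and ATG13 (adjusted p = 0.535). DESeq2 with the block called ULK1 (adjusted p = 0.00726) but not ATG13 (adjusted p = 0.112).

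The lipid kinase complex that produces phosphatidylinositol 3-phosphate on the forming membrane did not move as one. ATG14, the subunit that directs the complex to autophagy, was at 52.1 and 55.3 normalized CPM in the core and at 34.3 and 30.8 in the invasion zone. The replicates were close to each other and the zones far apart (log2 fold change -0.72 ± 0.15, adjusted p = 0.00128). PIK3C3, the catalytic subunit, was at 55.7 and 60.0 in the core and at 48.5 and 43.0 in the invasion zone, a smaller fall of -0.33 ± 0.15 on the log2 scale (adjusted p = 0.0361; 0.123 under DESeq2 with the block). BECN1, the beclin subunit that the complex shares across its forms, was at 56.4 and 59.6 in the core and at 60.8 and 72.8 in the invasion zone. Its invasion libraries lay above both core libraries, but the log2 fold change of 0.20 ± 0.16 was not called (adjusted p = 0.136).

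Of the proteins that read this lipid or supply membrane, 3 of 4 fell (75.0%, against 20.1% of all genes tested). WIPI1, which binds phosphatidylinositol 3-phosphate, was at 40.3 and 31.2 normalized CPM in the core and at 17.7 and 13.3 in the invasion zone. Its levels in the zones were clearly separate and nearly the same ratio held in each replicate, -1.18 and -1.23 (log2 fold change -1.19 ± 0.23, adjusted p = 0.000251). WIPI2, the paralog that recruits the conjugation machinery, was the more abundant per kilobase, at 33.0 against 18.7 for WIPI1 in the core, and was not called (log2 fold change -0.18). ATG2A, which transfers lipids into the growing membrane, was at 24.7 and 18.6 in the core and at 18.8 and 11.3 in the invasion zone, with overlapping ranges (log2 fold change -0.50 ± 0.30, adjusted p = 0.0215). ATG9A, a lipid scramblase of the vesicles that seed the membrane, was at 207 and 182 in the core and at 175 and 156 in the invasion zone (log2 fold change -0.23 ± 0.15, adjusted p = 0.0374). Its difference depended on the processing: with the GC and length trend removed, the blocked log2 fold change was 0.05, and that of ATG2A was -0.10 (adjusted p = 0.70 and 0.629). The median over all genes was then 0.07. Neither ATG9A nor ATG2A was called under DESeq2 with the block (adjusted p = 0.161 and 0.0756). ATG9A shares 1833 of its 4724 exonic bases with another gene annotated on the same strand, so that its count is uncertain.

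Of the 6 conjugation enzymes, 2 rose (33.3%, against 20.0% of all genes tested) and 0 fell (against 20.1%), counts too small to set them apart from other genes. ATG3, the E2-like enzyme that attaches ATG8 proteins to phosphatidylethanolamine, was at 95.3 and 85.4 normalized CPM in the core and at 135 and 121 in the invasion zone. Both invasion libraries were above both core libraries and each replicate gave a log2 ratio of 0.50 (log2 fold change 0.50 ± 0.14, adjusted p = 0.0016). ATG7, the E1-like enzyme that activates ATG8 proteins and ATG12, was at 75.6 and 82.7 in the core and at 91.0 and 99.9 in the invasion zone. This was a smaller rise, 0.27 on the log2 scale in each replicate (SE 0.14, adjusted p = 0.0302, and 0.111 under DESeq2 with the block). With the GC and length trend removed, the blocked log2 fold change of ATG7 was 0.43 (adjusted p = 0.000753). The 4 others were not called: ATG12, a ubiquitin-like protein joined to ATG5, had a log2 fold change of 0.10, ATG5 itself 0.15, the ATG8-processing protease ATG4A 0.10, and ATG16L1, which positions the conjugate on the membrane, -0.21.

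Of the ATG8 family, the proteins that coat the autophagosome, 4 of 5 fell (80.0%, against 20.1% of all genes tested), by different amounts. GABARAPL1 was at 18.5 and 13.9 normalized CPM in the core and at 9.90 and 6.23 in the invasion zone, the widest relative gap of the family (log2 fold change -0.98 ± 0.30, adjusted p = 0.00199). GABARAPL2 was at 149 and 111 in the core and at 100 and 74.6 in the invasion zone, with a log2 ratio of -0.57 in each replicate (SE of the fitted change 0.22, adjusted p = 0.000894). Both belong to the GABARAP branch, which acts in the later steps of autophagosome formation.

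In the LC3 branch, MAP1LC3A was low, at 6.23 and 5.77 in the core and 4.19 and 2.86 in the invasion zone (log2 fold change -0.71 ± 0.30, adjusted p = 0.0378). MAP1LC3B, the isoform whose lipidated protein is the usual marker of autophagosomes, was at 205 and 189 in the core and at 173 and 164 in the invasion zone. The invasion libraries were below the core libraries by a small margin (log2 fold change -0.22 ± 0.13, adjusted p = 0.0418). Neither LC3 call held under DESeq2 with the block (adjusted p = 0.174 and 0.177), and that of MAP1LC3A was also lost with the GC and length trend removed (adjusted p = 0.133). MAP1LC3B has a near-identical copy in MAP1LC3B2, so that uniquely mapped reads can undercount it. GABARAP could not be judged: it had 51, 11, 60 and 10 counts (core replicates 1 and 2, then invasion), and it shares 691 of its 1951 exonic bases with a gene on the same strand (log2 fold change 0.21 ± 0.50).

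All 3 cargo receptors fell (against 20.1% of all genes tested). SQSTM1, or p62, which links ubiquitinated cargo to ATG8 proteins and is itself degraded by autophagy, was at 1153 and 1143 normalized CPM in the core and at 885 and 791 in the invasion zone. The core replicates were almost equal, and the invasion libraries below them (log2 fold change -0.45 ± 0.16, adjusted p = 0.00218). NBR1, a receptor of similar architecture, was at 364 and 265 in the core and at 249 and 155 in the invasion zone. OPTN, which acts in the removal of damaged mitochondria and bacteria, was at 293 and 244 in the core and at 239 and 162 in the invasion zone. For both, the lowest core library was only just above the highest invasion library, although each replicate on its own gave a negative ratio, -0.55 and -0.78 for NBR1 and -0.29 and -0.59 for OPTN (log2 fold changes -0.64 ± 0.28 and -0.42 ± 0.22, adjusted p = 0.000568 and 0.00554).

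**Figure D2:**
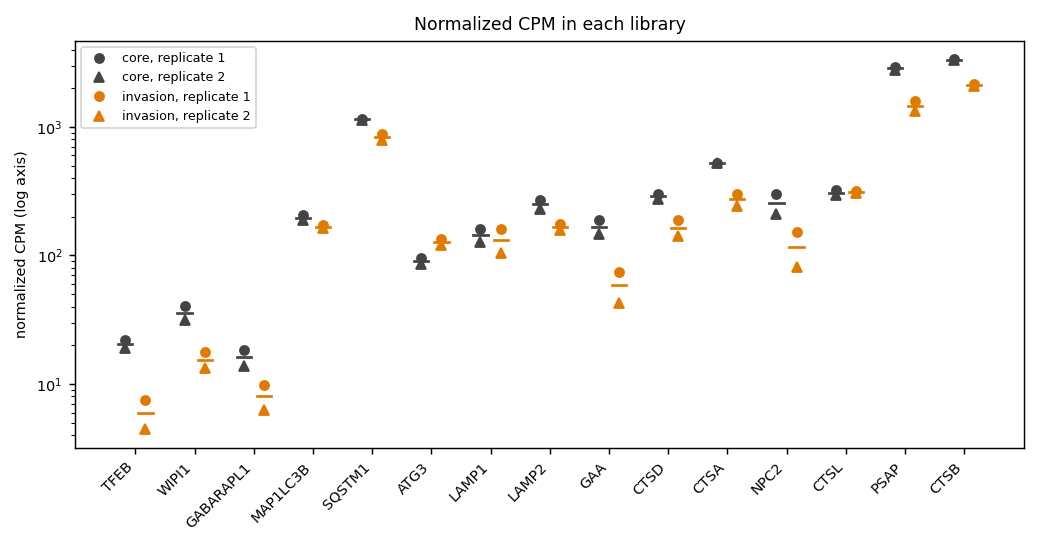
Normalized CPM (log axis) of 15 of the genes in each of the 4 libraries (grey, core; orange, invasion zone; circles, replicate 1; triangles, replicate 2), with the mean of each zone as a bar. The invasion libraries of TFEB, WIPI1, GAA, CTSA, CTSD and PSAP lie below the core libraries, those of ATG3 above them, and those of CTSL and LAMP1 overlap them.

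Of the lysosomal membrane proteins, LAMP2 and NPC1 fell and LAMP1 and MCOLN1 were not called. LAMP2, a glycoprotein of the limiting membrane needed for autophagosome clearance and chaperone-mediated autophagy, was at 272 and 231 normalized CPM in the core and at 175 and 158 in the invasion zone, without overlap (log2 fold change -0.59 ± 0.15, adjusted p = 0.000593). NPC1, which exports cholesterol from the lysosome, was at 95.0 and 79.9 in the core and at 67.4 and 57.6 in the invasion zone (log2 fold change -0.48 ± 0.16, adjusted p = 0.00264). LAMP1, the companion glycoprotein of LAMP2, was at 162 and 127 in the core and at 161 and 104 in the invasion zone. These ranges overlapped, and the log2 fold change was -0.13 ± 0.25 (adjusted p = 0.23). MCOLN1, the lysosomal calcium channel, had log2 ratios of -0.15 in replicate 1 and 0.31 in replicate 2.

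In the lysosomal lumen, 7 of the 10 members fell (70.0%, against 20.1% of all genes tested) and 0 rose (against 20.0%), and the fall reached the most abundant members. Among the proteases, CTSB, a cysteine cathepsin, was at 3366 and 3331 normalized CPM in the core and at 2178 and 2078 in the invasion zone (log2 fold change -0.65 ± 0.19, adjusted p = 0.000486). CTSD, the main aspartic protease of the lysosome, was at 302 and 275 in the core and at 188 and 141 in the invasion zone (log2 fold change -0.81 ± 0.18, adjusted p = 0.000322). CTSA, a carboxypeptidase that also protects other lysosomal enzymes, was at 528 and 520 in the core and at 303 and 243 in the invasion zone (log2 fold change -0.94 ± 0.16, adjusted p = 0.000199). In all 3, replicates within a zone lay closer together than the zones.

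The cathepsins were not uniform. CTSL, another cysteine cathepsin and the third most abundant of the proteases per kilobase, was at 325 and 293 normalized CPM in the core and at 317 and 305 in the invasion zone, and its log2 fold change of 0.01 ± 0.14 was small beside the -0.65 of CTSB. CTSZ was not called either (log2 fold change -0.08 ± 0.33). Of the 5697 exonic bases of CTSD, 1556 overlap genes of the same strand and 1331 a gene of the other, and CTSZ shares 6136 of 19384 with a gene on the other strand. The strand setting of the counting is not given in the sources used here, so that reads of such pairs may be mixed or left out. Among the other members that were called, the longest overlaps with genes of the other strand were 956 of 3403 exonic bases in WIPI1, 1687 of 7535 in SQSTM1, 1857 of 8633 in CTSA, 1047 of 5025 in ATG14, 1597 of 8833 in ATG7 and 2238 of 15893 in HEXA.

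Of the glycosidases, GAA and HEXA fell and GLA did not. GAA, the acid glucosidase that degrades glycogen in lysosomes and is missing in Pompe disease (chr17:80101533-80119881, + strand), was at 189 and 146 normalized CPM in the core and at 74.5 and 42.9 in the invasion zone. Its fitted level was 2.84-fold higher in the core, and both replicates showed a wide gap, with log2 ratios of -1.35 and -1.77 (log2 fold change -1.51 ± 0.29, adjusted p = 0.000101). HEXA, a subunit of the hexosaminidase that degrades gangliosides, was at 89.4 and 78.2 in the core and at 56.7 and 48.9 in the invasion zone (log2 fold change -0.67 ± 0.16, adjusted p = 0.000676). GLA, the galactosidase deficient in Fabry disease, lay above both core libraries in both invasion libraries, but its log2 fold change of 0.37 ± 0.20 was not called (adjusted p = 0.0805; 0.0428 under limma voom with the block, a setting chosen after the data were seen).

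Both lipid-handling proteins of the lumen fell. NPC2, which hands cholesterol to NPC1, was at 299 and 210 normalized CPM in the core and at 153 and 81.0 in the invasion zone (log2 fold change -1.12 ± 0.34, adjusted p = 0.000181). PSAP, the precursor of the saposins that present sphingolipids to their hydrolases, was at 2918 and 2795 in the core and at 1603 and 1335 in the invasion zone (log2 fold change -0.96 ± 0.20, adjusted p = 0.000166). The log2 fold changes of this pair were both larger in size than that of NPC1 in the membrane, a difference that was not tested.

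**Figure D3:**
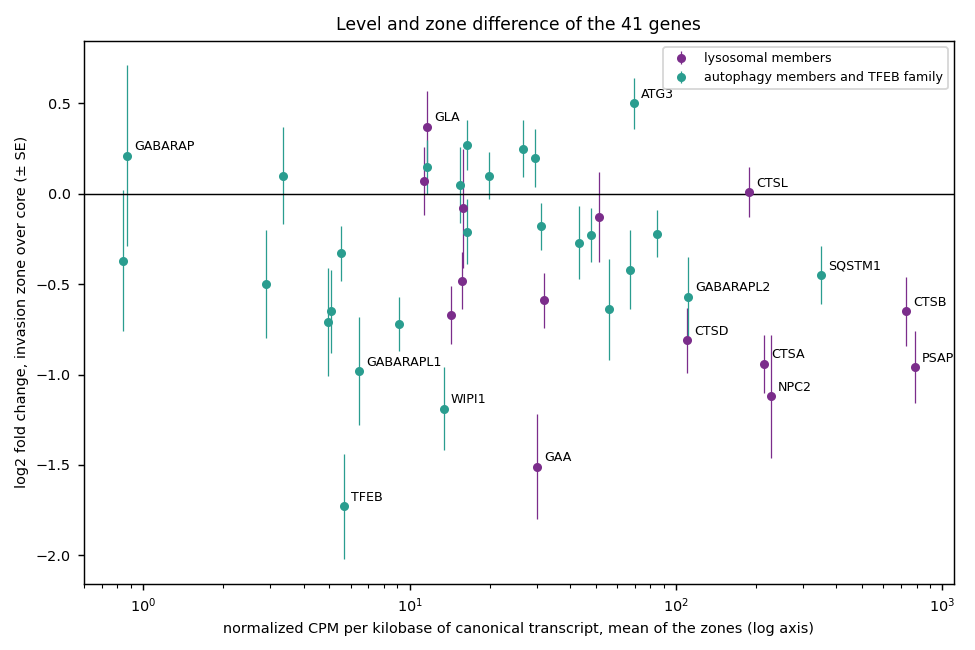
Level and zone difference of the 41 genes: normalized CPM per kilobase of the canonical transcript, averaged over the zones (horizontal, log axis), against the log2 fold change, invasion zone over core, with its SE (vertical). Genes far below 0 occur among low-level genes (TFEB) and among the most abundant ones (PSAP), while CTSL, also abundant, lies at 0.01.

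Large differences occurred at low and at high levels. Per kilobase of canonical transcript, PSAP (1039 normalized CPM in the core, 535 in the invasion zone) and CTSB (897 and 570) were the most abundant members, followed by SQSTM1 (404 and 295). ULK2 (0.946 and 0.734) and GABARAP (0.817 and 0.926) were the lowest. Together the 10 lumenal members took 0.792% and 0.774% of all counts in the core, and 0.489% and 0.435% in the invasion zone. The pair of CTSB and PSAP made up 77.0% to 79.6% of these lumenal counts in the 4 libraries, so that the summed share describes chiefly these 2 genes. All 41 members together took 1.19% and 1.14% of counts in the core and 0.82% and 0.723% in the invasion zone.

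A wider list of 128 names from the same pathways, which held none of the members, placed them among their partners. Like the members, this list was chosen with earlier results of these data known, so its shares are no independent check. It had 126 genes in the table and 117 that passed the filter. With the block, 58 of these fell (49.6%, against 20.1% of all genes tested) and 10 rose (8.55%, against 20.0%). Their median log2 fold change was -0.27, against -0.01 over all genes. Without the block, edgeR called 0. At an unadjusted p under 0.05 it counted 39 lower (all genes: 13.2%) and 6 higher (all genes: 12.3%). DESeq2 without the block called 17 lower (all genes: 5.64%) and 0 higher (all genes: 5.22%). By list, with no test between them, 25 of 35 hydrolases and activators fell (71.4%, median -0.60), as did 11 of 20 genes of the lysosomal membrane and of sorting (55.0%, median -0.35) and 7 of 9 cargo receptors (77.8%, median -0.31). The proton pump of the lysosome, the V-ATPase, had 5 of 16 lower (31.2%) and 3 higher (18.8%) with a median of -0.03. The further genes of autophagosome formation had 5 of 23 lower (21.7%) and 3 higher (13.0%) with a median of -0.12. Their share lower was close to the 20.1% of all genes. The genes of lysosomal nutrient sensing had 5 of 13 lower (38.5%) and 3 higher (23.1%), with a median of -0.16. The shares higher of the pump and of nutrient sensing were near the 20.0% of all genes.

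**Figure D4:**
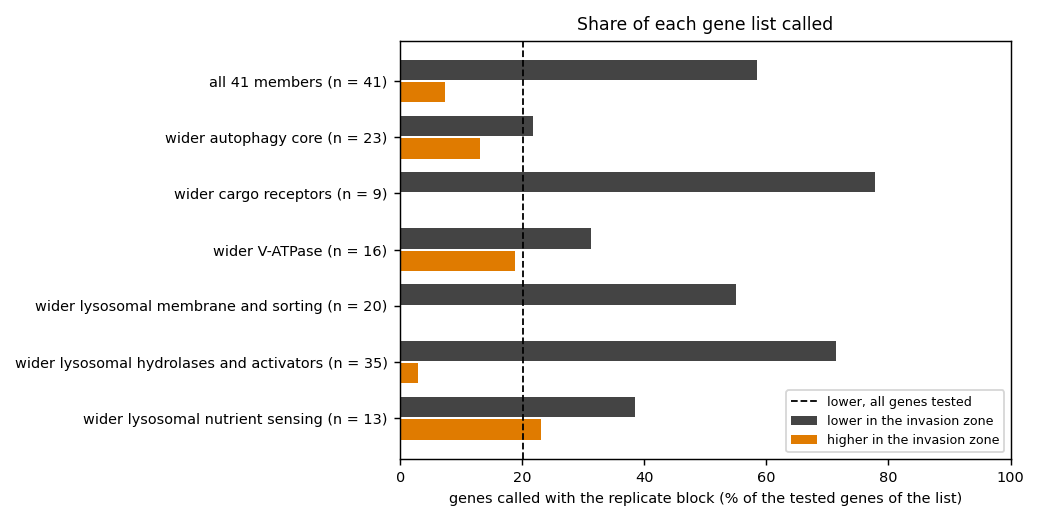
Share of the tested genes of the 41 members and of 6 wider lists that were called lower (grey) or higher (orange) in the invasion zone with the replicate block; the dashed line marks the 20.1% called lower among all genes tested. The bars of the hydrolases and cargo receptors reach 71.4% and 77.8%, and that of the wider autophagy genes stays near the line.

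The 4 called wider genes with the lowest log2 fold changes in the blocked test were CTSO, FUCA1, TPCN1 and CTSF, followed by BNIP3 (-1.73 for CTSF and -1.72 for BNIP3). CTSO, a further cysteine cathepsin, was at 74.2 and 59.5 normalized CPM in the core and at 19.7 and 3.79 in the invasion zone (log2 fold change -2.42 ± 0.65, adjusted p = 0.00077). CTSF, of the same protease family, was at 169 and 137 in the core and at 60.6 and 33.7 in the invasion zone (log2 fold change -1.69 ± 0.30, adjusted p = 0.000116). TPCN1, an endolysosomal cation channel, was at 495 and 276 in the core and at 177 and 55.0 in the invasion zone (log2 fold change -1.72 ± 0.58, adjusted p = 0.000184). The zones did not overlap in any of the 3, but the replicates of the invasion zone differed widely, and leaving out 1 library moved the log2 fold change of CTSO between -4.14 (without invasion replicate 1) and -1.77 (without invasion replicate 2), and that of TPCN1 between -2.81 and -1.12 (the same libraries). FUCA1, the lysosomal fucosidase, was also called (adjusted p = 0.00186) but at 133 and 16 counts in the core and 26 and 0 in the invasion zone, which leaves the size of its difference poorly determined.

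The 4 called wider genes with the highest log2 fold changes in the blocked test were FNIP2, RUBCN, EPG5 and ATP6V0B. FNIP2, a partner of folliculin in nutrient signalling at the lysosome, was at 13.0 and 13.5 normalized CPM in the core and at 20.3 and 20.9 in the invasion zone (log2 fold change 0.63 ± 0.18, adjusted p = 0.00714). RUBCN, a negative regulator of autophagosome maturation, was at 85.1 and 95.7 in the core and at 119 and 144 in the invasion zone (log2 fold change 0.54 ± 0.16, adjusted p = 0.00129), but 6115 of its 11139 exonic bases overlap genes of the other strand, so that its count is uncertain. EPG5, a tether for the fusion of autophagosomes with lysosomes, and ATP6V0B, a membrane subunit of the V-ATPase, had log2 fold changes of 0.54 and 0.52 (adjusted p = 0.00206 and 0.00179). BNIP3 and BNIP3L, the receptors of mitophagy known as hypoxia-responsive genes, were among the wider cargo receptors, with log2 fold changes of -1.72 and -1.28.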

How the data were processed

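The authors filtered out ribosomal RNA (Bowtie) and reads of quality score 15 or less, mapped the rest to hg38 (STAR) and assigned unique alignments to genes (HTSeq-count). The deposited values are raw counts per gene; for their tools no version, and for counting no strand setting, is given in the sources used here. Of 56306 gene rows, 2 repeated rows without counts were left out. Counts were scaled by TMM (edgeR 4.0.16, R 4.3.3), and normalized CPM are CPM on the scaled library sizes. Genes passed edgeR's filterByExpr (a CPM equal to 10 counts in a median-sized library, in 2 libraries, and 15 counts in total). The zones were compared by the quasi-likelihood test with Benjamini-Hochberg adjustment, called at 0.05, without a replicate term, since the study's methods describe a pairwise test and name none, and with the replicate number as a block. DESeq2 1.42.0 and limma 3.58.1 were alternatives. SEs are of the fit without the block. Fitted log2 fold changes use edgeR's small prior count. Same-numbered libraries deviated together. Over the tested genes, deviations from the zone mean in core and invasion replicate 1 had a correlation of 0.584. With 2 libraries per zone, replicate 2 mirrors this by construction, and the replicates also differ in depth. They were read as pairs from the dissection described in the methods and the consecutive library numbers of the columns. Libraries of a zone were not duplicates (chi-square per degree of freedom 33.8 and 31.9). Scripts were tested on simulated data.

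The members and gene lists were chosen with earlier results of these data known. Values in every library are given for each member called with or without the block and, per role, for the most abundant member and that with the largest change; other members are given by log2 fold change. Of the wider list, the 4 genes called with the block and with the largest blocked log2 fold change in each direction are named. The library values of LAMP1, CTSL and GABARAP, and BNIP3 and BNIP3L, lie outside this rule and were chosen after their values were seen. Gene identifiers were matched to GENCODE; 98.1% were found. Promoters came from RefSeq. The 128 wider names stand for 126 genes, since WDR45L and RETREG1 are other symbols of WDR45B and FAM134B, which were tested; 9 wider genes did not pass the filter.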

Additional observations from a re-analysis of the deposited data

How the results depend on the processing

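Without the block, 0 members were called in either direction by edgeR with upper-quartile or RLE scaling, with 10 counts required of each library, the legacy form of the test, a 2-fold minimum or GC and length correction, and by limma voom. No filter beyond 1 count in total gave 5 lower (203 of 32869 genes in all), DESeq2 12 and an unadjusted p 16 lower and 1 higher. Leaving out 1 library, which leaves a zone with a lone library assumed to vary like the other zone, gave 1 (core replicate 1), 8 (core replicate 2), 9 (invasion replicate 1) and 2 (invasion replicate 2) members lower, and 0 higher; over all genes these fits called 108 of 14910, 973 of 17389, 1101 of 14968 and 291 of 17486 lower and 8, 862, 771 and 186 higher. With the replicate block, edgeR gave 24 lower and 3 higher, DESeq2 18 and 1, limma voom (chosen after seeing the data) 24 and 4, and GC and length correction 19 and 3. A 2-fold minimum with the block (chosen after seeing the data) left 4 lower (all genes: 1147 of 15529). Over all genes, the block with this correction called 4040 higher and 2819 lower of 15395, against 3107 and 3116 of 15529 without it; over the same 15529 genes, DESeq2 with the block called 2185 higher and 1939 lower and limma voom with the block 3234 and 3228.

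For the wider list, to be read beside the same counts over all genes, no filter gave 6 lower, DESeq2 17, an unadjusted p 39 lower and 6 higher, and leaving out 1 library 4 to 21 lower. With the block, edgeR gave 58 lower and 10 higher of 117 (all genes: 3116 and 3107 of 15529). DESeq2 gave 45 and 8 (all genes: 1939 and 2185) and limma voom 59 and 10 (all genes: 3228 and 3234). GC and length correction gave 45 and 12 (all genes: 2819 and 4040 of 15395). The 2-fold minimum gave 11 lower of 117 (all genes: 1147 of 15529, 7.39%).

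The members' median log2 fold change was -0.25 after correction for GC and length in both fits. The median over all genes was then 0.07 in both, against -0.01 in the main fit. When 1 library was left out, the members' median was -0.54 to -0.21. In the other alternatives it moved by less than the spread between the replicates. No member called with the block changed sign in any of the 16 alternatives, except ATG9A. With GC and length correction, without and with the block, the log2 fold changes turned to 0.05 and 0.05 for ATG9A, 0.04 and 0.03 for WIPI2, 0.03 and 0.02 for LAMP1 and 0.12 and 0.10 for CTSZ. CTSL turned to -0.02 with upper-quartile scaling and with 10 counts in every library, and MCOLN1 to 0.00 or just below with limma voom and the block. The ranges when 1 library was left out were -0.75 to 0.26 for ULK2, -0.12 to 0.22 for ATG101, -0.16 to 0.28 for ATG4A, -0.48 to 0.88 for GABARAP, -0.48 to 0.15 for LAMP1, -0.06 to 0.10 for CTSL, -0.46 to 0.29 for CTSZ and -0.05 to 0.22 for MCOLN1. Signs turned as follows. Without core replicate 1, ULK2 was at 0.26, ATG101 at -0.07 and LAMP1 at 0.07. Without core replicate 2, ATG4A was at -0.01, GABARAP at -0.09, CTSL at -0.06, CTSZ at 0.29 and MCOLN1 at -0.05. Without invasion replicate 1, ATG4A was at -0.16, GABARAP at -0.48, CTSL at -0.02 and CTSZ at 0.26. Without invasion replicate 2, ATG101 was at -0.12, LAMP1 at 0.15 and MCOLN1 at -0.03. The cause of these shifts was not tested. Depth limits GABARAP and MAP1LC3A most, with 10 and 34 counts in the shallowest library.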
